A study of Mus musculus with 12 samples.

Results

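Fragments of mitochondrial tRNA precursors, other than the precursor of the Val tRNA, were followed through the livers of NSun2-deleted and wild-type mice before and after CCl4 injury. The members were all read sequences that the tRNA fragment table listed under the precursor of a mitochondrial tRNA and nowhere else, with fragments of the mt-Val-TAC precursor left out. There were 3429 such sequences of 87699 in the table, with 25719 of 1705883 reads, and they came from 20 precursors. The precursor of the Tyr tRNA was not analysed here. A further 22 sequences with 32 reads were also listed under other tRNAs and were not counted as members. Members were grouped by tRNA, strand and position, where the leader lies before the tRNA, the trailer lies after it, and a junction fragment crosses either end of the tRNA. This gave 63 groups, of which 41 held at least 10 reads and the other 22 held 80 reads together.

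The livers came from male B6D2F1/Crl mice, aged 8 to 12 weeks by 1 label and 9 to 12 weeks by the treatment protocol, that carried a Cas9-made deletion in NSun2 (NS-KO) or were wild type (WT). The NSun2 enzyme methylates cytosines of tRNAs, which gives 5-methylcytosine. Mice received corn oil alone (D0), a single injection of CCl4 examined at day 3 (D3) or repeated injections examined at day 27 (D27), with CCl4, a solvent that liver cells turn into a toxic product, given as 40% in corn oil at 2 mL per kg. Small RNAs of 14 to 40 nt were sequenced after treatments that remove end groups and methyl marks, with 2 libraries for each of the 6 groups. The deletion is present in every cell of the animal, the libraries of a group came from different mice by the study's methods and legends, and a table of tRNA reads holds no marker gene with which to check the tissue.

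Mammalian mitochondrial DNA is transcribed from both strands into long RNAs in which tRNAs stand between rRNAs and mRNAs. RNase P cuts at the 5′ end of each tRNA and ELAC2, the mitochondrial RNase Z, cuts at its 3′ end, so that the cuts which free a tRNA also set the ends of its neighbours. A trailer in these precursors is therefore often the start of a neighbouring rRNA or mRNA, or RNA that runs antisense to a tRNA of the other strand. The gap between the Cys and Asn tRNA genes holds the origin of light-strand replication, a stem-loop with a run of T.

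Sequences around the annotated tRNA ends near which most member reads begin or end follow (flank in capitals, tRNA in lower case). They are read 5′ to 3′ along the strand of the tRNA, in the letters of the deposited table.
Trp-TCA, 3′ end and trailer: ttaacttctgATAAGGACTGTAAGACTTCA
Phe-GAA, 3′ end and trailer: cccataaacaCAAAGGTTTGGTCCTGGCCT
Gln-TTG, 3′ end and trailer: attgtcctagAAATAAGAGGGCTTGAACCT
Gly-TCC, 3′ end and trailer: gaagagagtaATTAACCTGTACACTGTTAT
Thr-TGT, 3′ end and trailer: tctcaagacaTCAAGAAGAAGGAGCTACTC
Ile-GAT, 3′ end and trailer: cttatttctaGGACAATAGGAATTGAACCT
Asn-GTT, leader and 5′ end: TTTTTTTTCGGCGGTAGAAGtagattgaag
Leu-TAA, leader and 5′ end: CCTCTAACCTAGAGAAGGTTattagggtgg
The windows lie on the plus strand at chrM:5007-5036 for Trp, chrM:59-88 for Phe, chrM:9449-9478 for Gly, chrM:15346-15375 for Thr, chrM:3765-3794 for Ile and chrM:2656-2685 for Leu-TAA, and on the minus strand at chrM:3752-3781 for Gln and chrM:5150-5179 for Asn. Positions are those of the deposited table, whose tRNA intervals equal those of the GRCm38.p6 annotation of RefSeq for 19 of the 20 precursors and differ by 1 base for His.

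The 10 member sequences with the most reads held 7687 reads, 29.9% of all member reads, and all came from the trailers of Phe, Trp and Gln. They are shown in the order of their reads, with a base that differs from the precursor in capitals, to show how narrowly these fragments are placed.
Phe trailer, 952 reads: aaaggtttggtcctggcT
Trp trailer, 915 reads: ataaggactgtaagac
Trp trailer, 912 reads: ataaggactgtaagacA
Trp trailer, 909 reads: ataaggactgtaaga
Gln trailer, 851 reads: aaataagagggcttgaa
Phe trailer, 758 reads: aaaggtttggtcctggcc
Phe trailer, 657 reads: aaaggtttggtcctggcA
Trp trailer, 657 reads: ataaggactgtaag
Gln trailer, 582 reads: aaataagagggcttgaaA
Phe trailer, 494 reads: aaaggtttggtcctggc
Within each tRNA these sequences share their first base, and they differ by the last few bases or by a mismatch at the last base. The Phe fragments begin at chrM 70, the Trp fragments at chrM 5017 and the Gln fragments, on the minus strand, at chrM 3771.

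Trailers made up 89.3% of member reads (22967 reads), leaders 6.63% and junctions 4.07%. The 12 groups with the most reads held 90.9% of member reads and the 3 largest held 60.1%. These were the Trp trailer (7321 reads), the Phe trailer (4784 reads) and the Gln trailer (3357 reads). The trailer of Cys and the leader of Asn are the same stretch of RNA, so their fragments are listed under both precursors and were counted once, as Cys-Asn spacer fragments, with 3610 reads. The Gly trailer held 1306 reads, the Thr trailer 714, the Ile trailer 600, the Leu-TAA leader 577, the Arg leader 468, the Lys trailer 320 and the 5′ junction of His 317. Most members were rare, since 2141 of them had 1 read in all and 68 were found in all 12 libraries.

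Most trailer fragments began at the first or second base after the annotated tRNA end. Of 19346 reads in trailers of a single tRNA, 12558 began at the first trailer base and 18909 at the first or second. The share that began at trailer base 1 was 92.3% for Trp, 87.8% for Gln, 98.7% for Gly and 95.1% for Thr. For Phe, 96.0% began at trailer base 2, which is the first base of mt-Rnr1, the gene of the 12S rRNA, in the annotation. Base 2 was also the most frequent first base for Ile (67.8%) and Lys (66.6%).

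**Figure D1:**
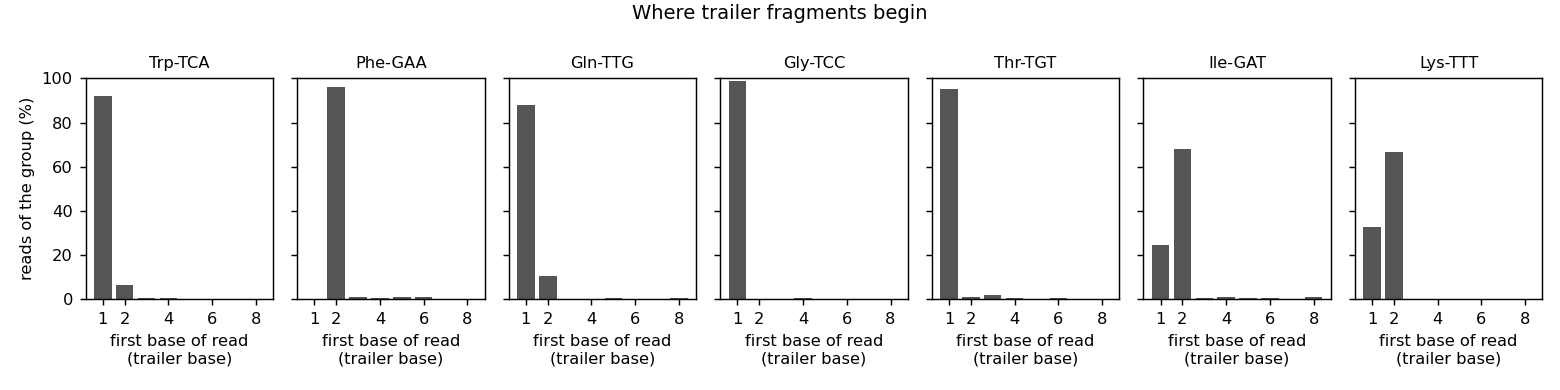
Percent of the reads of each trailer group (y axis) by the trailer base at which the read begins (x axis, base 1 is the first base after the tRNA), all 12 libraries together. Reads of Trp, Gln, Gly and Thr begin mostly at base 1 and those of Phe, Ile and Lys mostly at base 2.

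By the annotation, 47.6% of member reads ran antisense to a tRNA of the other strand, 21.6% lay in an rRNA, 14.97% lay in an mRNA on the same strand, and 14.7% lay in no annotated gene, most of them in the Cys-Asn spacer. The Trp trailer is antisense to the Ala tRNA (TrnA), the Gln trailer to the Ile tRNA (TrnI), the Thr trailer to the Pro tRNA (TrnP) and the Ile trailer to the Gln tRNA (TrnQ). The Gly trailer is the start of ND3, a subunit of complex I, and the Lys trailer is the start of ATP8, a subunit of ATP synthase. Members were short, with a median length of 18 nt over all members, 17 nt in trailers, 25 nt in leaders and 35 nt in junctions, against 31 nt over all reads of the table.

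Of member reads, 42.6% matched the precursor exactly and 38.1% carried their mismatch at the last base. The last base put in was A in 23.5% and T in 10.9% of member reads. In the Gly trailer 1284 of the 1294 reads that cover trailer base 3 carried T3C, counted from the first trailer base, in both genotypes. In the 5′ junction of His 289 of 317 reads began 1 base before the tRNA with T0G, where the first base of the tRNA is 1. A G before the first base is a known feature of mature His tRNAs.

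The Cys-Asn spacer fragments had a graded 5′ end, and most ended at the spacer's last base or with A or AA after it. The spacer is the 32 nt of the minus strand from chrM:5160-5191 between both tRNAs. Of its 3610 reads, 2920 (80.9%) began in the T run or at the base after it and held the spacer's end. The number of T at the start had a median of 5, with quartiles of 3 and 8. The forms below are members that differ only in the T run and at the end, with the base that differs from the precursor in capitals.
ends in the spacer: ttcggcggtagaag
one base further: ttcggcggtagaagA
further still: ttcggcggtagaagAa
longer T run: tttttcggcggtagaagA
longest T run among the called fragments: tttttttttttcggcggtagaagA
The base in capitals is T1A, counted from the first base of the Asn tRNA, and the A after it is also the genome's base. Of the 2759 reads that ended at the spacer's last base or with A or AA after it, 10.2% ended there, 46.7% had A and 43.1% had AA. A further 76 reads that ended at the spacer's last base with a mismatch on it were left out, and with them 12.6% of 2835 reads ended there. Among the remaining spacer reads, 401 ended before the spacer's last base and 238 reached the Asn tRNA without a mismatch at its first base. A or AA followed in 89.4% of 2358 such reads in NS-KO livers and 91.8% of 401 in WT livers, and in 84.9% to 100% over the libraries. A longer run of A would need more than the 1 mismatch that the alignment allowed, so longer runs were outside what the table can list. Whether the A was added to a cut end was not tested.

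Libraries held 46937 to 221446 tRNA reads in NS-KO livers and 81515 to 275568 in WT livers, and member reads numbered 914 to 4914 in NS-KO livers and 1681 to 1980 in WT livers. Read numbers were scaled to CPM, counts per 1000000 tRNA reads of the library, and 1 read was 3.63 to 21.3 CPM. Fragments of subtype tRF-5c, which come from the 5′ part of mature tRNAs, took 12.5% to 30.4% of reads in NS-KO livers and 35.6% to 71.5% in WT livers, so the share left for every other fragment differed between genotypes. WT D3 replicate 1 stood apart from the other WT libraries with 35.6% tRF-5c. The study's methods call the libraries of a group independent biological replicates, with 2 libraries per group. The limma p-values below use a spread between libraries within groups that is estimated over all 6 groups together. The exact permutation p-values below come from reassigning genotype among the libraries of each day.

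Member fragments made up a larger share of tRNA reads in NS-KO livers. In NS-KO livers they took 3.55% and 3.05% at D0, 2.22% and 2.90% at D3, then 1.95% and 2.79% at D27, against 0.744% and 1.05%, 2.06% and 0.911%, and 1.14% and 0.634% in WT livers. The libraries of the genotypes did not overlap at any day. The Wilson 95% interval, which covers counting error only, was 3.41% to 3.68% for the highest library and 0.605% to 0.664% for the lowest. Shares averaged 2.74% ± 0.579 in NS-KO livers and 1.09% ± 0.512 in WT livers (SD, n = 6 each), a mean difference within days of 1.65 percentage points (two-sided exact permutation of genotype within days, p = 0.00926, the smallest that this design can give).

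The size of this difference depended on the total it was set against. Out of reads outside tRF-5c, members averaged 3.38% ± 0.524 in NS-KO livers and 2.69% ± 0.413 in WT livers, a difference of 0.693 points (exact permutation p = 0.0370, n = 6 each). Out of reads listed under any mitochondrial tRNA they averaged 6.66% ± 1.30 in NS-KO livers and 7.49% ± 0.840 in WT livers (SD, n = 6 each), a difference of −0.837 points that did not pass (exact permutation p = 0.259). At D3 the 2 NS-KO libraries had 6.11% and 5.06% by that measure, below 9.12% and 7.40% in WT livers. Among exact matches alone the difference in the mitochondrial share was −1.61 points (exact permutation p = 0.0463), and among members listed under 1 precursor it was −1.65 points (exact permutation p = 0.0463).

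**Figure D2:**
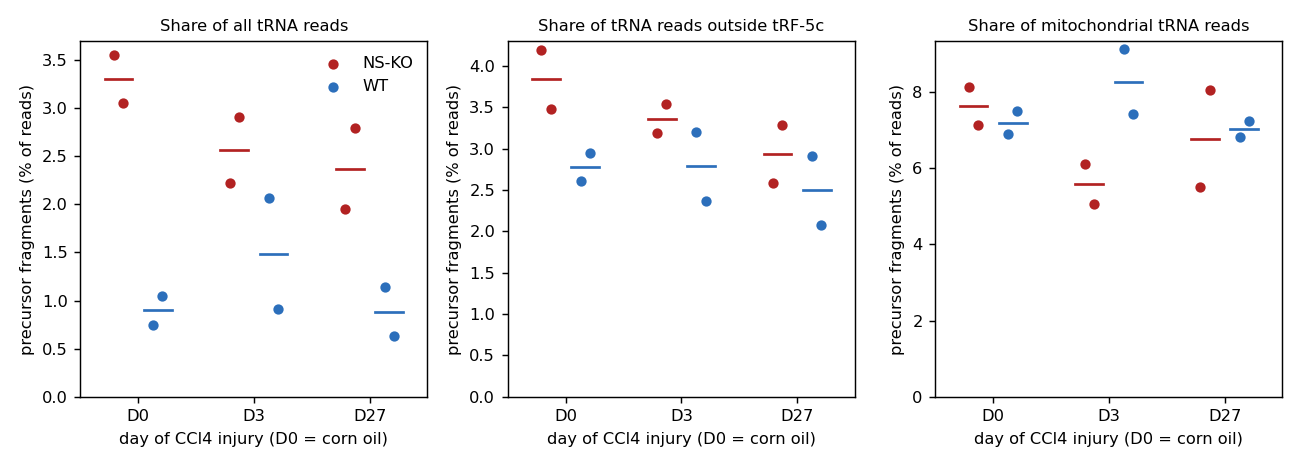
Member reads as a percent of all tRNA reads (left), of tRNA reads outside tRF-5c (middle) and of mitochondrial tRNA reads (right), by day, with 1 point per library, NS-KO in red left of WT in blue, and a line at the mean of each pair. The genotypes are separate in the left panel at every day, and at D3 the NS-KO libraries are the lower ones in the right panel.

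At equal numbers of tRNA reads, NS-KO livers held more distinct member sequences. Member reads were not made equal, so this number moves with the member share. Whether sequences were more diverse per member read was not tested. After each library was thinned to 46937 reads, NS-KO livers held 433 ± 53.1 members and WT livers 224 ± 77.3 (SD, n = 6 each), with a difference of 209 (exact permutation p = 0.00926). Thinned instead to equal reads outside tRF-5c, the difference was 56.6 members (exact permutation p = 0.0278, n = 6 each). The trailer share of member reads was 89.8% ± 2.58 in NS-KO livers and 89.1% ± 0.995 in WT livers (SD, n = 6 each), a difference of 0.705 points (exact permutation p = 0.435, adjusted over 3 positions 0.653). Without NS-KO D3 replicate 2 that difference was 1.32 points (exact permutation p = 0.0370).

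Inside the member reads the make-up differed between genotypes for 3 of the 12 largest groups. The Trp trailer took 25.8% ± 6.22 of member reads in NS-KO livers and 36.3% ± 3.12 in WT livers, and spacer fragments listed into Asn took 14.2% ± 9.31 in NS-KO livers and 3.91% ± 2.31 in WT livers (SD, n = 6 each). The Thr trailer took 3.19% ± 0.638 in NS-KO livers and 2.27% ± 0.466 in WT livers (SD, n = 6 each). Each gave an exact permutation p = 0.00926 and an adjusted p over the 12 groups of 0.0370. Shares add up to the whole, so one group's share moves with the others. The minus strand, which holds the Gln trailer and the spacer, took 33.1% ± 7.90 of member reads in NS-KO livers and 22.4% ± 2.40 in WT livers.

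**Figure D3:**
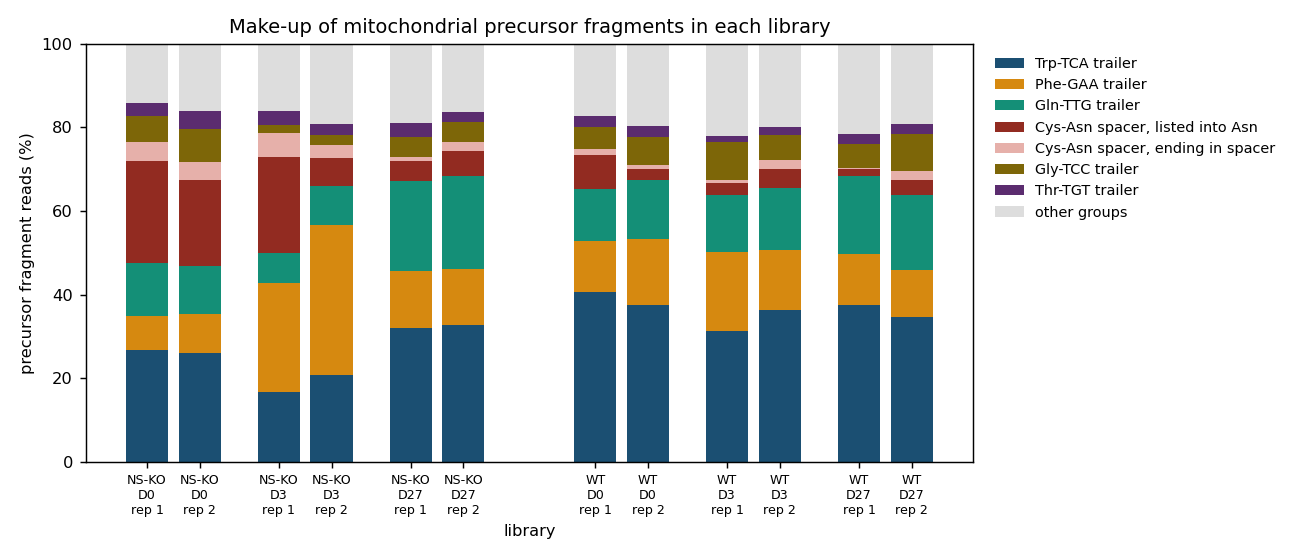
Percent of member reads (y axis) in the 7 largest groups and the rest, stacked, for each of the 12 libraries with NS-KO on the left and WT on the right. Spacer fragments listed into Asn (dark red) average 14.2% in NS-KO libraries and 3.91% in WT libraries, and Phe trailer fragments (orange) reach 26.1% and 35.8% in the NS-KO D3 libraries.

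Sums of reads by tRNA and position were compared in a fit over all sums of the table with limma on log2 CPM with TMM scaling, in which 306 sums were tested and 27 were member groups. Over days, 8 of the 27 were higher in NS-KO livers and 0 were lower (adjusted p under 0.05; 8 had an unadjusted p under 0.05, and voom weights also gave 8 and 0). Of all 306 sums, 24.5% were called higher and 17% lower. The median log2 fold change was 0.18 over the 27 member groups and 0.16 over all sums, and by library size alone these medians were 0.99 and 0.88, with 15 member groups called higher and 0 lower. Of the 27 groups, 23 reached the read minimum in a library of each genotype and 4 in NS-KO libraries only, among them 2 of the 8 called, the Ile and Gly 3′ junctions. When each genotype had to reach the minimum, a filter added after the values were seen, 6 of 23 groups were higher and 0 lower (limma), against 21.8% and 17.2% of 261 sums, and these were the other 6 of the 8. By comparison, 32 of 47 sums of mature mitochondrial tRNAs were called higher, with a median of 1.04. Fold changes below are with TMM scaling unless stated otherwise, and the prior count of 2 reads draws those of low groups towards 0.

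Spacer fragments showed the largest difference of the 12 groups given in full. Those listed into Asn stood at 8628 and 6264 CPM at D0, 5098 and 1979 CPM at D3 and 915 and 1652 CPM at D27 in NS-KO livers, against 605 and 273, 601 and 424, and 179 and 229 CPM in WT livers. Each NS-KO library was above every WT library, and D27 held the lowest values of both genotypes. The log2 fold change was 2.26 over days (SE 0.33, limma adjusted p = 0.000514). It was 2.88 at D0 (SE 0.58, limma adjusted p = 0.0137), 2.67 at D3 (SE 0.58, limma adjusted p = 0.00473) and 1.23 at D27 (limma adjusted p = 0.173).

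Spacer fragments that end inside the spacer were also higher in NS-KO livers. They stood at 1610 and 1342 CPM at D0, 1251 and 903 CPM at D3 and 192 and 609 CPM at D27 in NS-KO livers, against 120 and 118, 147 and 181, and 51.1 and 145 CPM in WT livers. The lowest NS-KO library, at D27, was 9 reads and lay above every WT library. Over days their log2 fold change was 1.82 (SE 0.37, limma adjusted p = 0.00294), with 2.27 at D0 and 2.62 at D3 (limma adjusted p = 0.0426 and 0.0100) and 0.56 at D27 (limma adjusted p = 0.652).

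The Thr trailer, antisense to the Pro tRNA, had the smallest error of the called groups. It stood at 1144 and 1321 CPM at D0, 718 and 785 CPM at D3 and 617 and 696 CPM at D27 in NS-KO livers, against 192 and 291, 319 and 171, and 275 and 156 CPM in WT livers. All NS-KO libraries were above all WT libraries. Over days its log2 fold change was 1.02 (SE 0.14, limma adjusted p = 0.000399), 1.09 at D0 (limma adjusted p = 0.0255), 1.67 at D3 (limma adjusted p = 0.000389) and 0.32 at D27 (limma adjusted p = 0.456). Its most frequent sequence, with 161 reads, was as follows.
Thr trailer: tcaagaagaaggagct

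The Phe trailer, whose fragments begin with the 12S rRNA, was high in NS-KO livers at D3. It stood at 2923 and 2855 CPM at D0, 5785 and 10410 CPM at D3 and 2640 and 3738 CPM at D27 in NS-KO livers, against 905 and 1666, 3889 and 1313, and 1398 and 719 CPM in WT livers. The D3 libraries of NS-KO livers lay above all other libraries, and in CPM the genotypes did not overlap within a day. With TMM scaling the log2 fold change was 0.70 over days (SE 0.18, limma adjusted p = 0.0105), 1.82 at D3 (SE 0.32, limma adjusted p = 0.00123), −0.03 at D0 and 0.31 at D27. The gap in CPM at D0 was thus absent with TMM scaling. By library size alone the median log2 fold change of all sums at D0 was 1.29. Over days the call was lost without WT D0 replicate 1 (log2 fold change 0.56, limma adjusted p = 0.0826) or WT D3 replicate 2 (0.53, limma adjusted p = 0.0632).

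The Leu-TAA leader is the 3′ end of mt-Rnr2, the gene of the 16S rRNA, and 340 of its 577 reads ended exactly at the leader's last base. It stood at 353 and 426 CPM at D0, 655 and 1532 CPM at D3 and 277 and 278 CPM at D27 in NS-KO livers, against 109 and 130, 368 and 124, and 217 and 90.7 CPM in WT livers. In CPM, NS-KO libraries were higher within each day, with the widest gap at D3. The log2 fold change with TMM scaling was 0.76 over days (SE 0.23, limma adjusted p = 0.0227) and 2.19 at D3 (SE 0.40, limma adjusted p = 0.00172). It was 0.41 at D0 and −0.32 at D27 (limma adjusted p = 0.530 and 0.685), so at D27 the TMM-scaled value had the other sign than the CPM. Over days it did not pass without any 1 of 7 libraries (NS-KO D0 replicate 2, D3 replicate 2 and D27 replicate 1, and WT D0 replicates 1 and 2, D3 replicate 2 and D27 replicate 2), with log2 fold changes of 0.56 to 0.74 and limma adjusted p of 0.0520 to 0.0963.

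The other called groups crossed a tRNA end and were sparse. The Leu-TAA 5′ junction, which joins the 16S rRNA end to the tRNA, had 124 reads in NS-KO livers and 46 in WT livers, with 128 to 267 CPM in NS-KO libraries and 20.7 to 83.0 CPM in WT libraries, so they did not overlap. Its log2 fold change was 1.25 over days (SE 0.25, limma adjusted p = 0.00266) and 2.23 at D3 (limma adjusted p = 0.00234). The Ile 3′ junction had 23 and 32 reads at D3 in NS-KO livers, against 1 and 1 in WT livers, and 0 to 3 reads in every other library. The Gly 3′ junction had 12 and 15 reads at D3 in NS-KO livers, against 1 and 2 in WT livers, and 1 to 4 in the rest. The minimum per library was scaled to library size. The Ile junction reached it only in the NS-KO D3 libraries (104 and 251 CPM). The Gly junction reached it only in NS-KO D3 replicate 2 (118 CPM) and NS-KO D27 replicate 1 (85.2 CPM). Both therefore entered the fit through NS-KO libraries alone, where they were high, and their calls are given as a description. Over days the limma adjusted p was 0.0323 for Ile, which did not pass without any 1 of 7 libraries (0.0516 to 0.0996), and 0.0159 for Gly, which did not pass without WT D0 replicate 2 (0.0745) or WT D27 replicate 1 (0.0683).

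**Figure D4:**
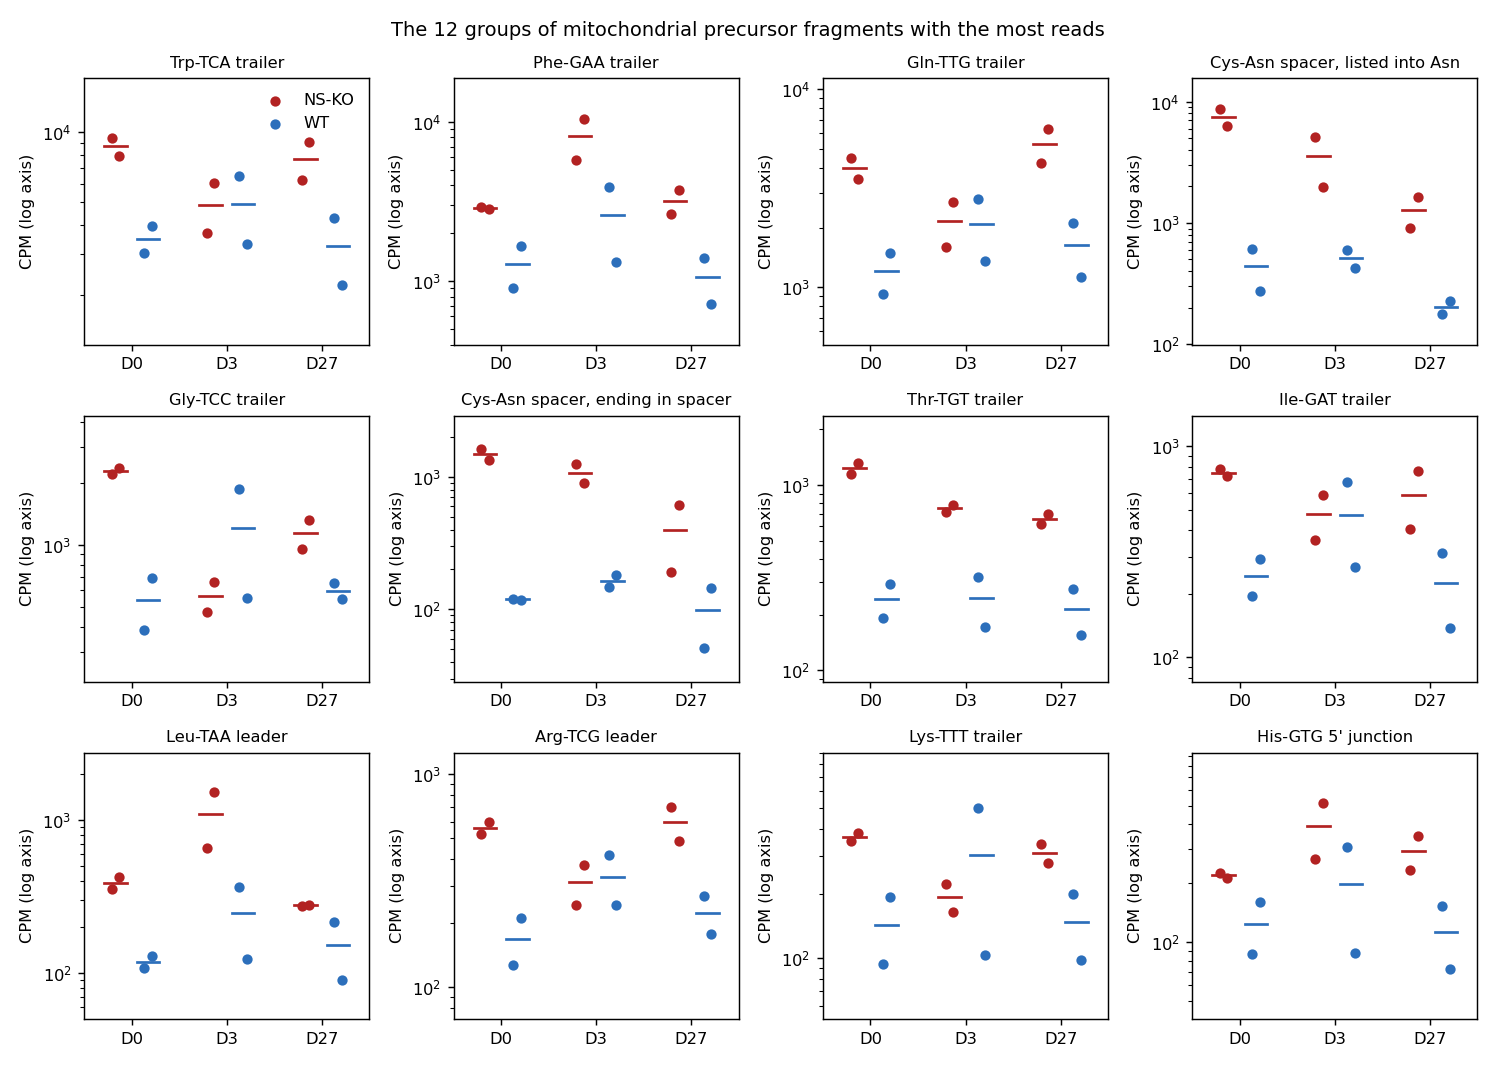
CPM (log axis) by day for the 12 groups with the most reads, with 1 point per library, NS-KO in red left of WT in blue, and a line at the mean of each pair. The spacer groups and the Thr trailer are higher in all 6 NS-KO libraries than in any WT library, and the NS-KO D3 libraries are the highest of the Phe trailer.

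The largest group was not called. The Trp trailer stood at 9461 and 7904 CPM at D0, 3698 and 6040 CPM at D3 and 6216 and 9111 CPM at D27 in NS-KO livers, against 3019 and 3932, 6465 and 3304, and 4259 and 2192 CPM in WT livers. The genotypes were apart at D0 and D27 and overlapped at D3. Its log2 fold change over days was 0.04 with TMM scaling (SE 0.15, limma adjusted p = 0.873) and 0.88 by library size alone, equal to the median of all sums on that scale.

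The Gln trailer, which is antisense to the Ile tRNA, stood at 4476 and 3515 CPM at D0, 1603 and 2694 CPM at D3 and 4215 and 6277 CPM at D27 in NS-KO livers, against 924 and 1480, 2797 and 1350, and 2120 and 1132 CPM in WT livers. Here too only D3 overlapped. Its log2 fold change over days was 0.35 (SE 0.16, limma adjusted p = 0.105).

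The Gly trailer, the start of the ND3 mRNA, was lower at D3 than at D0 in NS-KO livers and not in WT livers. It stood at 2231 and 2386 CPM at D0, 470 and 660 CPM at D3 and 958 and 1321 CPM at D27 in NS-KO livers, against 387 and 687, 1877 and 553, and 651 and 548 CPM in WT livers. In CPM, NS-KO libraries were above WT libraries at D0 and D27 and not at D3. The log2 fold change was −0.11 over days (SE 0.19, limma adjusted p = 0.676), 0.88 at D0 and −0.80 at D3 (limma adjusted p = 0.1001 and 0.0906). With TMM scaling the value at D27 was −0.41 (limma adjusted p = 0.468), of the other sign than the difference in CPM. Its most frequent sequence, with 229 reads and T3C in capitals, was as follows.
Gly trailer: atCaacctgtacactgttatcttcatt

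The Ile trailer, the Arg leader (the end of ND3), the Lys trailer and the His 5′ junction had log2 fold changes over days of 0.21, 0.18, −0.06 and 0.30, none past the threshold (limma adjusted p = 0.314 to 0.873). The 15 tested groups outside the 12 had log2 fold changes of −0.32 to 1.25 over days, and the Leu-TAA 5′ junction and both 3′ junctions above were those called. Among them the Met trailer, the start of ND2, was called at D0 only (1.26, SE 0.38, limma adjusted p = 0.0490), with 381 and 447 CPM in NS-KO livers and 41.3 and 105 CPM in WT livers.

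**Figure D5:**
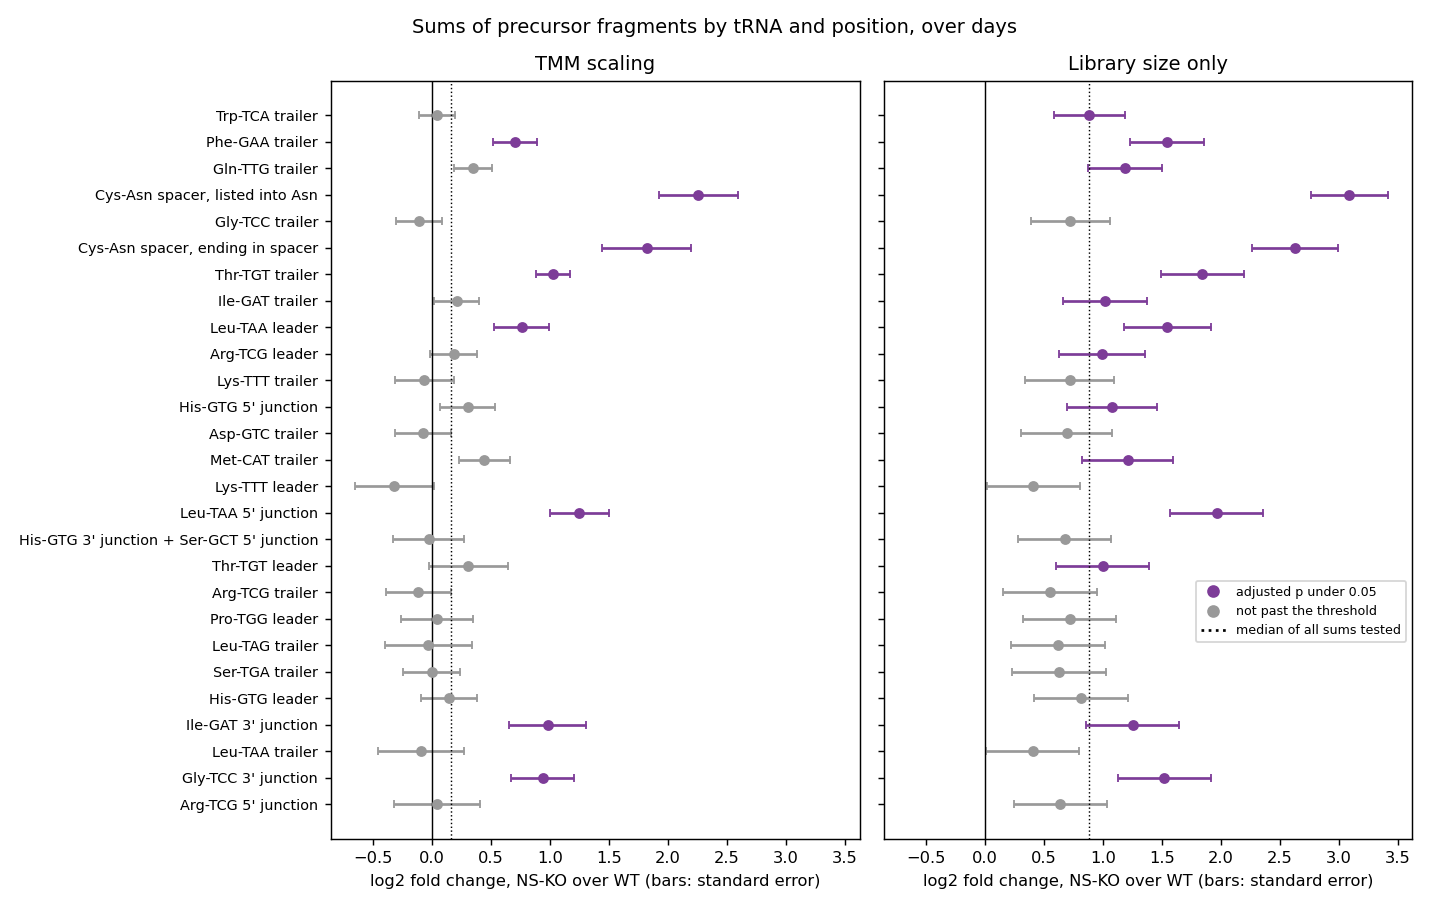
Log2 fold change of NS-KO over WT across days for the 27 member groups tested, with standard errors as bars, under TMM scaling (left) and library size only (right). Purple points have an adjusted p under 0.05 and the dotted line is the median of all sums tested, which lies at 0.16 on the left and 0.88 on the right.

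By day, 4 of 27 member groups were higher in NS-KO livers at D0 and 0 lower, against 6.54% and 7.52% of all sums. These were both spacer groups, the Thr trailer and the Met trailer, and leaving out a library of D0 left 0 or 1 of them. At D3, 8 were higher and 0 lower, against 19% and 11.1% of all sums, and these were the same 8 groups as over days, both 3′ junctions included. At D27, 0 were called in either direction by limma (0 had an unadjusted p under 0.05, and voom weights gave 0), against 4.9% higher and 6.86% lower among all sums, and 6 were higher by library size alone. A call at D3 and none at D27 does not show that the days differ, and that difference was not tested.

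Calls after acute injury came from NS-KO livers. For WT D3 against WT D0, 0 of 27 groups passed in limma (1 had an unadjusted p under 0.05, and voom weights gave 0), against 0.327% higher and 0% lower among all sums. For NS-KO D3 against NS-KO D0, 3 groups were higher and 2 lower, against 15.7% and 10.5% of all sums. The higher ones were the Phe trailer (log2 fold change 1.88, SE 0.32, limma adjusted p = 0.00143), the Leu-TAA leader (1.78, SE 0.40, limma adjusted p = 0.00659) and the Ile 3′ junction (limma adjusted p = 0.00477), which had 55 reads in D3 and 3 in D0 libraries and reached the read minimum only in NS-KO D3. The lower ones were the Gly trailer (−1.56, SE 0.33, limma adjusted p = 0.00488) and the Arg trailer (−1.48, SE 0.48, limma adjusted p = 0.0397), the start of ND4L. The Arg trailer was sparse, with 14 and 18 reads in the NS-KO D0 libraries and 20 and 5 in the NS-KO D3 libraries. Only 1 group was called lower with a prior count of 0.5, with the replicate block or with several of the libraries left out in turn. None was with exact matches only. These comparisons share libraries with those between genotypes at D0 and D3.

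Single fragments entered the fit when 1 or more libraries had 20 CPM, which kept 815 members among 22065 fragments. Of these members 32 were higher in NS-KO livers and 0 lower (limma, with 105 members at an unadjusted p under 0.05), against 3.81% higher and 2.23% lower among all fragments, and voom weights called 115 higher and 2 lower. The 20 CPM were reached in NS-KO libraries only by 633 of the 815, in WT libraries only by 28 and in both genotypes by 154, and 20 of the 32 called members were among the 633. In NS-KO libraries with 21.3 CPM per read, 1 read was enough. The 32 calls are therefore given as a description. In a fit of only those fragments that reached 20 CPM in both genotypes, a filter added after the values were seen, 21 of the 154 members were higher and 0 lower (limma), against 7.63% and 10.3% of 4706 fragments. Spacer fragments were 21 of the 32, with 16 listed into Asn and 5 ending in the spacer. Phe trailers gave 5, the Thr trailer 3, and the Trp trailer, the Leu-TAA 5′ junction and the His 5′ junction 1 each. The count was 3 to 7 without any 1 WT library, 169 without NS-KO D0 replicate 1, 140 without NS-KO D27 replicate 2 and 66 without NS-KO D3 replicate 1.

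The called fragment with the most reads was the exact 18-nt Phe trailer.
Phe trailer: aaaggtttggtcctggcc
It stood at 184 and 234 CPM at D0, 1355 and 2521 CPM at D3 and 128 and 226 CPM at D27 in NS-KO livers, against 52.6 and 92.9, 294 and 77.6, and 83.0 and 47.2 CPM in WT livers. The D3 libraries of NS-KO livers were the highest, and in CPM the genotypes did not overlap within a day. Its log2 fold change was 1.28 (SE 0.33, limma adjusted p = 0.0427), with 664 reads in NS-KO livers and 94 in WT livers.

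Next came the most frequent spacer form.
Cys-Asn spacer: ttcggcggtagaagA
It stood at 537 and 362 CPM at D0, 438 and 204 CPM at D3 and 0 and 122 CPM at D27 in NS-KO livers, against 37.5 and 12.4, 12.3 and 10.3, and 0 and 7.3 CPM in WT livers, with 185 and 17 reads in all. NS-KO livers were higher at D0 and D3, and at D27 one library of each genotype had none, which at that depth allows up to 63.9 CPM in the NS-KO library and 19.2 CPM in the WT library. Its log2 fold change was 2.29 (SE 0.47, limma adjusted p = 0.0192). The other spacer forms with 68 or more reads that were called had log2 fold changes of 1.37 to 1.96.

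Of the 10 most frequent members, the exact 18-nt Phe trailer was the only one called. The most frequent of all, the Phe trailer form that ends in T, had 810 reads in NS-KO livers, of which the D3 libraries held 381 and 392, and 142 in WT livers, with 16 to 28 in each library. Its log2 fold change over days was 0.52 (SE 0.39, limma adjusted p = 0.476). The 4 Trp trailer sequences had log2 fold changes of −0.14 to 0.12.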

How the data were processed

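Per the labels and the study's methods, reads were checked with FastQC and their adapters removed with cutadapt by the authors, who retained lengths of 14 to 40 nt. Bowtie, at no more than 1 mismatch, placed reads on mature tRNAs first, and what was left on precursors, which carry 40 nt of flank. Versions are not given in the sources used here. The deposited table holds whole-number reads of each sequence in each library between text lines that show each alignment. No count model was run on it, and limma on log2 CPM was used in its place. Reads carry no molecular identifiers.

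Each sequence was counted once, and its place was read from the text lines. The strand of a precursor was taken from the order of the tRNA numbers, and was set to minus where overlapping precursors called for it. All 10 overlapping pairs then agreed, which is not a separate check because the overlaps helped to set the strands. Gene annotation came from RefSeq (GRCm38.p6). The members and lists were chosen with earlier results of these data known. Shares were compared by exact two-sided permutation of genotype within days. Sums by tRNA and position (at least 10 reads, and a minimum per library in at least 2 libraries) and fragments (at least 20 CPM in at least 1 library) were fitted in limma 3.58.1 (R 4.3.3) with trend, TMM scaling, a prior of 2 reads and a mean for each group, with Benjamini-Hochberg adjustment over the whole table. The fit was tried on simulated counts that had a single spread setting, with no shift of tRF-5c between genotypes built in. That trial therefore cannot show how TMM scaling handles such a shift. Thinned numbers are means of 20 copies. The 12 groups with the most reads, the 10 sequences with the most reads, the most frequent sequence of a group, and up to 10 called groups or fragments in order of reads could be named; the Met, Arg and Ile or Gly junction groups are named as calls, and further called spacer forms are shown for their T run, chosen after their values were seen. Tools were Python 3.11.15, numpy 2.4.6, pandas 2.3.3, scipy 1.17.1 and matplotlib 3.10.9. Library size in place of TMM, voom weights, other filters and prior counts, exact matches only, single listing, a replicate block and leaving out each library were tried.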

Additional observations from a re-analysis of the deposited data

Results flagged for a closer look

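The change from D0 to D3 differed between genotypes for the Phe trailer and the Gly trailer, by an interaction term in the same limma fit that was added after the values were seen. For the Phe trailer the log2 change from D0 to D3 was 1.88 in NS-KO livers and 0.03 in WT livers, a difference of 1.85 (SE 0.45, adjusted p = 0.0193). For the Gly trailer it was −1.56 in NS-KO livers and 0.13 in WT livers, a difference of −1.69 (SE 0.47, adjusted p = 0.0366). Of the 27 groups, 2 passed (1 in each direction), and 0 passed without NS-KO D0 replicate 2, without WT D0 replicate 1 or without WT D0 replicate 2. By library size alone the median difference over all sums was −1.32, 2 groups were lower and 0 higher, and the Phe trailer was not called. These values rest on 2 libraries per group, and WT D3 replicate 1, with 35.6% tRF-5c reads, is one of them. Its part in the differences was not tested beyond leaving it out, which left 1 group higher and none lower, so the Gly trailer was not called. No group was lower either without NS-KO D0 replicate 1, NS-KO D3 replicate 1 or NS-KO D27 replicate 2. The same held with the replicate block or exact matches only. No group was higher without NS-KO D3 replicate 2 or without WT D3 replicate 2.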

How the results depend on the processing

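The member share of all tRNA reads kept its direction and passed under every alternative run, with differences of 1.46 to 1.85 points when 1 library was left out and 0.693 to 1.65 points otherwise (exact permutation with the replicate block, p = 0.0313, the smallest that 64 arrangements allow). The share of mitochondrial tRNA reads was −1.61 points with exact matches only and −1.65 with members listed under 1 tRNA only, both past the threshold, and −1.26 to −0.414 with 1 library left out. The trailer share ranged from 0.0902 to 1.32 points with 1 library left out. The number of members without thinning differed by 126 (exact permutation p = 0.287).

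Calls over days (8) were 15 by library size only, 4 with exact matches only and 5 to 8 with 1 library left out, the lowest count without NS-KO D3 replicate 2, WT D0 replicate 1 or 2, or WT D3 replicate 2. At D0 (4) they were 13 by library size only, 2 with a prior count of 0.5, 2 with at least 10 reads as the only filter, 2 with exact matches only and 0 to 3 with 1 library left out. At D3 (8) they were 6 to 9 with 1 library left out, and at D27 (0) 6 by library size only and otherwise 0. NS-KO D3 against NS-KO D0 (5) gave 2 with exact matches only and 2 to 5 with 1 library left out. The added difference between genotypes (2) gave 1 with the replicate block, 1 with exact matches only and 0 to 3 with 1 library left out. Single fragments (32) gave 117 with voom weights, 49 with at least 20 CPM in 2 libraries, 21 with 20 CPM in each genotype (added after the values were seen) and 3 to 169 with 1 library left out. The causes were not tested, and the counts of calls in this paragraph add both directions. For single groups, 197 values stayed on their side of the threshold, 18 lost and 6 gained it, and 0 of the values of called groups changed direction. Among groups not called, 14 of 105 values had the other sign, from the Trp trailer (8, at −0.08 to −0.02), the Lys trailer (4, up to 0.72) and the Gly trailer (2, 0.01 and 0.72). The Ile and Gly 3′ junctions could be fitted in 10 of 12 fits with a library left out.

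Deviations of libraries with the same replicate number correlated by −0.299 to 0.499 over 15 pairs of groups, 3 of them above 0.1, so the numbers were not taken to pair samples. With the number as a replicate block the calls were 8 over days, 3 at D0, 8 at D3, 0 at D27, 4 for NS-KO D3 against NS-KO D0 and 22 single fragments. One read was 3.63 to 21.3 CPM, which limits what rare fragments can show.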
